A study of Mus musculus with 212 samples.

Results

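The 10 genes described here are core and output genes of the mammalian circadian clock, the cell-autonomous timer that gives most tissues a daily rhythm of transcription. They are Clock, Per1, Per2, Per3, Cry1, Cry2, Dbp, Tef, Nr1d1 and Nr1d2, found by symbol among the 27123 genes of an mRNA expression table deposited with a small RNA study of mouse brain. The series covers the LXS recombinant inbred panel, whose strains descend from a cross of ILS and ISS, a pair of mouse strains bred for long and short sleep after ethanol. The labels describe 212 small RNA libraries from the right hemisphere of mice that received no treatment. They do not describe the mRNA profiles, so tissue, age, sex, clock time of collection and platform of those profiles are unstated there. A profile is named by strain, an animal number and a number after the last dot, here called its set; what a set stands for is not given either. Only columns of strains with at least as many labelled libraries as columns were used, which left 23 of 399 profiles. These are 6 profiles of ILS, 3 in set 1 and 3 in set 11; 6 of ISS, 3 in set 1 and 3 in set 15; 5 of LXS41, 2 in set 1, 2 in set 6 and 1 in set 9; and 6 of LXS80, 3 in set 3 and 3 in set 14. ILS and ISS are the parental inbred strains, and LXS41 and LXS80 are each 1 inbred strain made from their cross. All 4 groups were untreated as far as the labels of their strains say, and no transgene or induced allele is named.

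In the clock, the proteins CLOCK and ARNTL (BMAL1) pair and activate genes through E-box sequences. Among their targets are the Per and Cry genes, whose proteins return to the nucleus and repress the pair, and Nr1d1 and Nr1d2 (REV-ERB alpha and beta), whose proteins repress Arntl through RORE sequences. Dbp and Tef, transcription factors of the PAR bZIP family, are driven by E-boxes and act on D-box sequences, so that Dbp, Nr1d1 and Per3 messages run high near the time when Arntl is low. Clock itself has a shallow rhythm in many tissues. Per1 and Per2 also respond to neuronal activity and to glucocorticoids, through routes that do not need the clock. In whole brain, the suprachiasmatic pacemaker contributes only a little tissue.

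The elements that the clock works through could be read in the promoters of these genes. The window was 250 bases before to 50 bases after each transcription start, from RefSeq with build GRCm38.p6. Of the 10 genes, 9 had a promoter in the table, with 13 start sites in all. The words searched on both strands were CACGTG (E-box), CACGTT (a weaker form called the E-prime box), TTATGTAA, TTACATAA, TTATATAA and TTACGTAA (D-box), AGGTCA (RORE core) and TGACGTCA (the cAMP response element, CRE). None of these words contains another. An E-box lay in the windows of 3 members, Per1, Cry1 and Tef, against 8.09% of all 27025 genes with a promoter in the table, each read over all its start sites. An E-prime box lay in 3, Cry1, Cry2 and Nr1d1, against 5.44% of genes. A D-box lay only in Per3 among the 9, which held 2 of them, against 1.86% of genes. An AGGTCA core lay in Per1, Nr1d2 and 1 of the 3 start sites of Clock, against 18.1% of genes. No CRE was found in the windows of the members, and 2.03% of genes held one. The windows of Dbp, of the other two Clock starts and of the second Per1 start held none of the words. A match is a description of letters and does not show that a factor binds there.

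The 250 bases before the start are given for 5 members, to show the kinds of word found and their places; Dbp is not among them because its window held no word; capitals mark the words, read on either strand (AACGTG is the E-prime box and TGACCT the AGGTCA core on the other strand). They are Per1 (chr11:69098699-69098948, plus strand), with an E-box 166 bases upstream; Per3 (chr4:151044666-151044915, minus strand), with D-boxes 205 and 158 bases upstream; Cry1 (chr10:85185055-85185304, minus strand), with an E-prime box 79 and an E-box 60 bases upstream; Tef (chr15:81802423-81802672, plus strand), with an E-box 127 bases upstream; and Nr1d1 (chr11:98775378-98775627, minus strand), with an E-prime box 28 bases upstream.
Per1: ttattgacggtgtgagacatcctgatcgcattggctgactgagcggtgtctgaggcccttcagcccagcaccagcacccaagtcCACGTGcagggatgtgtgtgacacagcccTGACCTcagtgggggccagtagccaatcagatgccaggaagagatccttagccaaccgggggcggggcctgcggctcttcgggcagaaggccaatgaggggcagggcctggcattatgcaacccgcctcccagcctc
Per3: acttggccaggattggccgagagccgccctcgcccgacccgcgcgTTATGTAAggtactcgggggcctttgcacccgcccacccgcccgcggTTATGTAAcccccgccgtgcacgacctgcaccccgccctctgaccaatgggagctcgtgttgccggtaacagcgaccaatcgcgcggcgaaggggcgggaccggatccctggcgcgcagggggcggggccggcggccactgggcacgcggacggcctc
Cry1: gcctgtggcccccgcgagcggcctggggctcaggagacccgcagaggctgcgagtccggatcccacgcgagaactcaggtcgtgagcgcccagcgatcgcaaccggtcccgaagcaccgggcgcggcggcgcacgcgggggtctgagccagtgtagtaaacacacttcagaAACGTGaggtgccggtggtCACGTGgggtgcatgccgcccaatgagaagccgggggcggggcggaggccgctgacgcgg
Tef: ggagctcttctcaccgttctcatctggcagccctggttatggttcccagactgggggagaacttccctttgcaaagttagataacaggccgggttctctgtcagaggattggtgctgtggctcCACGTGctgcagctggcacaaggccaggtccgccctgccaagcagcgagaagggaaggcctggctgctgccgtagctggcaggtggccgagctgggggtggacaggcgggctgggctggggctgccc
Nr1d1: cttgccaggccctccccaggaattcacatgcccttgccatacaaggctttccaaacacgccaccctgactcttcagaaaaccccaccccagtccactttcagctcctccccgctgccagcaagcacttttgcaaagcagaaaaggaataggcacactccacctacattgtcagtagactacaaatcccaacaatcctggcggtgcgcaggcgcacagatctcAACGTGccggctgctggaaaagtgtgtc

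Profiles of the whole table were close to each other, with Spearman correlations from 0.983 to 0.994 and medians from 7.11 to 7.24 on the log2 scale. Neuronal marker genes averaged 11.5 to 11.7 in every profile, and the liver genes Alb and Apoa1 averaged 6.61 to 7.08 in 22 profiles. In ISS replicate 4 of set 15 that average was 7.63, where Alb was 8.18 against 6.21 to 7.03 in the other 22. ILS replicate 4 had 6.51 for Gabra6, a cerebellar granule cell gene, where the other 22 profiles had 10.02 to 10.61. Some results that concern ILS or ISS are therefore also given without these profiles. P-values measure the spread between these profiles, which may be partly technical, since nothing says how the profiles were collected. Levels are compared between profiles and not between genes, because no value per length is given.

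All 10 members passed the filter on low values, which kept 20617 genes. Dbp spanned 0.71 on the log2 scale, Per1 0.69 and Per2 0.69, Nr1d1 and Nr1d2 0.59 each, Cry1 0.43, Per3 0.39, Tef 0.37, Cry2 0.33 and Clock 0.32. The median range was 0.51 over the members, 0.47 over all genes tested and 0.42 over the 11247 genes of similar mean level. Between profiles of the same strain and set, the median residual SD of the members was 0.093, close to the 0.091 of those genes of similar mean. Clock had the smallest at 0.047, a value below which 0.902% of genes lay, followed by Tef (0.054) and Per3 (0.060). Per1 (0.12) and Nr1d2 (0.13) had the widest.

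Most of the spread of these genes lay between groups of profiles. For Per1, 66.9% of the sum of squares lay between strains and 13.5% between sets of 1 strain. Dbp had 61.2% between strains and 25.1% between sets, leaving 13.7% within a strain and set. Per2 differed from both, with 27.6% between strains and 49.9% between sets. In Cry1, Cry2 and Nr1d2, by contrast, 49.99% to 53.1% of the spread lay among profiles of the same strain and set. The median of each share over the members was 42.1% between strains, 23.9% between sets and 22.5% within. Over all genes tested these medians were 27.2%, 17.2% and 51.3%. Each median was taken separately, so they are not the split of any 1 gene. No test was run on these shares.

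**Figure D1:**
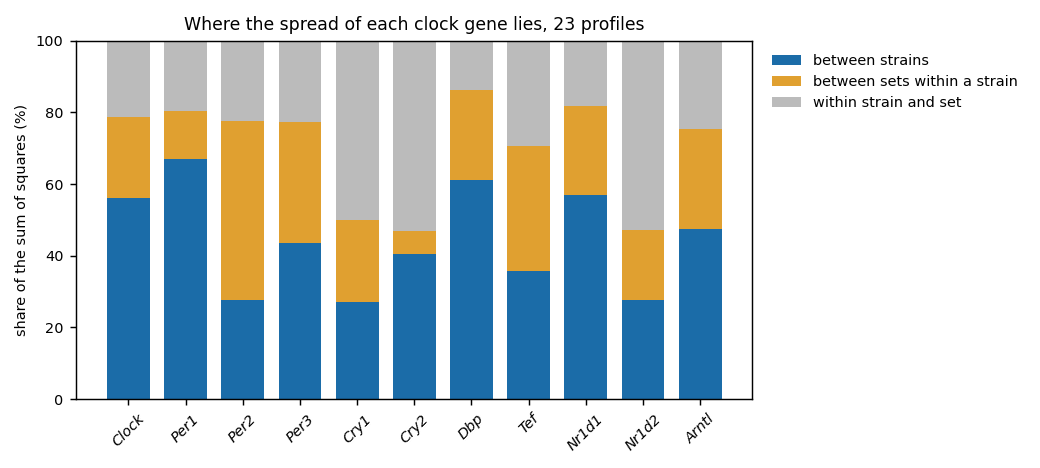
Stacked bars give, for each of the 10 clock genes and Arntl, the share in % of the sum of squares over 23 profiles that lay between strains (blue), between sets within a strain (yellow) and within strain and set (grey). Per1 and Dbp have over 60% between strains, Per2 has 49.9% between sets, and Nr1d2 and Cry2 lie mostly within strain and set.

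**Figure D2:**
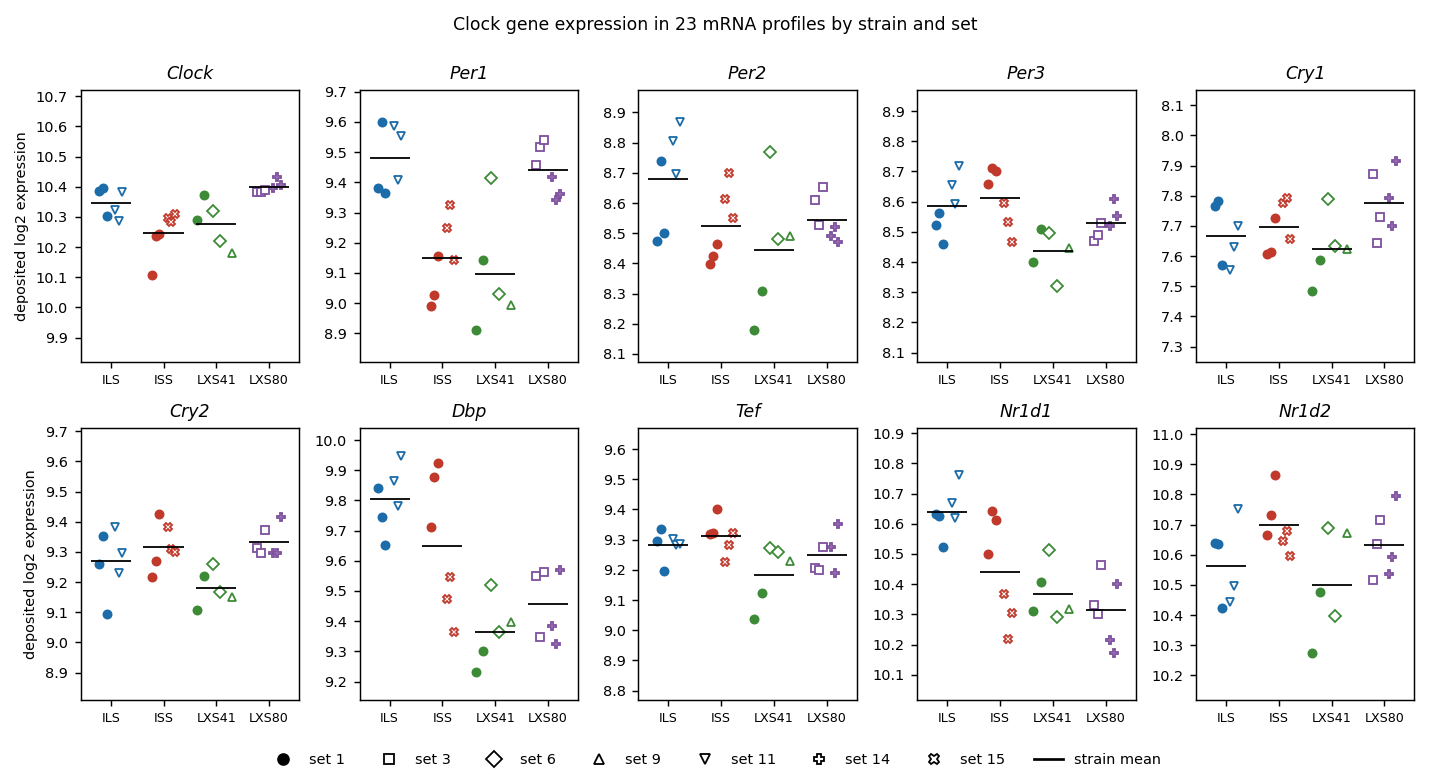
Each panel shows 1 clock gene, each point 1 profile on the deposited log2 scale, by strain on the horizontal axis; symbols give the set (filled circles are set 1), black bars are strain means, and every panel spans the same 0.9 log2 units. Per1 is high in ILS and LXS80, Dbp and Nr1d1 are high in ILS and in the ISS profiles of set 1, and Clock is narrow throughout.

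The strain effect was tested with an F test over the 4 strains in limma. Of the 10 members, 5 passed at an adjusted p of 0.05, and 22.6% of all genes tested passed the same test. They were 3 genes of the negative and output arms, Per1 (adjusted p = 0.000671), Dbp (0.0024) and Nr1d1 (0.00542), with Clock (0.0146) and Per3 (0.0453). Per1 and Dbp passed in all 29 alternatives tried, Nr1d1 in 28, Clock in 27 and Per3 in 9, so that the call of Per3 rests on the settings. With set as a term, the comparison of strains is left to set 1 and so to ILS, ISS and LXS41. There Nr1d1 (adjusted p = 0.117) and Clock (0.0637) did not pass. In the test over the 4 strains, Cry2 (0.0631), Tef (0.111), Per2 (0.152), Nr1d2 (0.153) and Cry1 (0.195) did not pass. In profiles of bulk tissue, fewer cells of a type and less RNA per cell cannot be told apart.

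Per1, a repressor of the loop that is also induced by light and activity, was highest in ILS, from 9.37 to 9.60 with a median of 9.48. In LXS80 it ran from 9.34 to 9.54 (median 9.44). In ISS it ran from 8.99 to 9.33 (median 9.15), and the 5 LXS41 profiles had 8.91, 9.14, 9.41, 9.03 and 8.99. ILS and ISS did not overlap, nor did LXS80 and ISS, while 1 LXS41 profile of set 6 (9.41) reached into the range of the high strains. The share of all genes whose strains separate in this way was not counted. The same holds wherever strain ranges of other genes are set side by side below. In order of the means, ILS (9.48) and LXS80 (9.44) lay within 1 SD of each other, and so did ISS (9.15) and LXS41 (9.098).

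Dbp, an output factor with one of the largest rhythms among clock genes, followed another order. It ran from 9.65 to 9.95 in ILS (median 9.81) and from 9.36 to 9.92 in ISS (median 9.63). LXS80 had 9.33 to 9.57 (median 9.47), and LXS41 had 9.23, 9.30, 9.52, 9.36 and 9.40. Every ILS profile was above every LXS80 and LXS41 profile, and ISS spread over both ranges, split by set. The means of LXS80 (9.46) and LXS41 (9.36) differed by less than 1 SD of either strain.

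Nr1d1, the repressor of Arntl, was likewise highest in ILS, from 10.52 to 10.76 with a median of 10.63. It ran from 10.22 to 10.64 in ISS (median 10.43) and from 10.17 to 10.46 in LXS80 (median 10.32). LXS41 had 10.31, 10.41, 10.51, 10.29 and 10.32. The means of LXS41 (10.37) and LXS80 (10.31) lay within 1 SD. Its paralog Nr1d2 had another order, with means of 10.70 in ISS, 10.63 in LXS80, 10.56 in ILS and 10.50 in LXS41, and neighbours in that order lay within 1 SD.

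For the remaining members the strain means lay closer together. Per2, the partner of Per1 in the repressor complex, ran from 8.47 to 8.87 in ILS (mean 8.68), 8.47 to 8.65 in LXS80 (8.55), 8.40 to 8.70 in ISS (8.53) and 8.18 to 8.77 in LXS41 (8.45), and the means of ILS and LXS80 differed by more than the SD of LXS80 (0.071) and less than that of ILS (0.16). Per3, the third Per gene, had means of 8.61 in ISS, 8.59 in ILS, 8.53 in LXS80 and 8.44 in LXS41, and the step from LXS80 to LXS41 was larger than the SD of either (0.048 and 0.077). Cry1 and Cry2, the repressors that bind with the Per proteins, were highest in LXS80 (7.78 and 9.33) and lowest in LXS41 (7.62 and 9.18). Tef ran from 9.31 in ISS to 9.28 in ILS, 9.25 in LXS80 and 9.18 in LXS41. For Cry2, LXS80 (9.30 to 9.42) lay above LXS41 (9.11 to 9.26) without overlap, and each other pair of strains overlapped.

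Clock, the activator, was tightest in LXS80, from 10.38 to 10.43, where the SD was 0.019 (n = 6). ILS ran from 10.29 to 10.40, ISS from 10.11 to 10.31, and LXS41 had 10.29, 10.37, 10.32, 10.22 and 10.18. LXS80 stood above every ISS and LXS41 profile. The strain call of Clock was lost after quantile normalization (adjusted p = 0.067) and, as given above, with set as a term. With set as a term, the highest and lowest means of ILS, ISS and LXS41 differed by 0.17. Over the 4 strains without that term they differed by 0.15. LXS80, the strain with the highest Clock mean, has no profile in set 1.

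The parents were compared directly, the contrast that the panel descends from. Of the members, 1 of 10 differed between ILS and ISS, against 7.60% of all genes tested. Per1 was 1.26-fold higher in ILS, by 0.33 on the log2 scale (SE 0.071, limma adjusted p = 0.00396), at 9.48 ± 0.11 (SD, n = 6) against 9.15 ± 0.13 (SD, n = 6). Without ILS replicate 4 the difference was 0.31 (adjusted p = 0.0118). Nr1d1 (0.20, adjusted p = 0.0655) and Clock (0.10, adjusted p = 0.0957) came next and did not pass. The difference was 0.16 for Per2 and 0.16 for Dbp, with adjusted p of 0.291 and 0.288. For Per3 (-0.026), Cry1 (-0.029), Cry2 (-0.048), Tef (-0.030) and Nr1d2 (-0.13), adjusted p ran from 0.293 to 0.844. The median difference of the 10 members was 0.037, and that of all genes was -0.0066.

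Both parents had 3 profiles in set 1, so the contrast could be made within 1 set and again between set 11 of ILS and set 15 of ISS. In set 1, 1 of 10 members passed, against 2.41% of all genes. Per1 was 0.39 higher in ILS (SE 0.090, adjusted p = 0.0226): the ILS profiles had 9.38, 9.60 and 9.37 and the ISS profiles 8.99, 9.03 and 9.16. Dbp did not pass there (-0.09, adjusted p = 0.727), with 9.84, 9.74 and 9.65 in ILS and 9.71, 9.88 and 9.92 in ISS. Nr1d1 in set 1 was 10.63, 10.63 and 10.52 in ILS and 10.50, 10.64 and 10.61 in ISS, a difference of 0.009 (adjusted p = 0.979).

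Between ILS of set 11 and ISS of set 15 the picture was another one, and 2 of 10 members passed, against 2.98% of all genes. Dbp was 0.40 higher in ILS (SE 0.080, adjusted p = 0.0074), with 9.86, 9.78 and 9.95 against 9.48, 9.55 and 9.36. Nr1d1 was 0.39 higher (SE 0.072, adjusted p = 0.00397), with 10.67, 10.62 and 10.76 against 10.37, 10.22 and 10.31. Per1 was 0.28 higher (SE 0.090, adjusted p = 0.116), with 9.59, 9.41 and 9.55 against 9.25, 9.33 and 9.14. For all 3 genes these ILS profiles lay above these ISS profiles, without overlap. The share of all genes that separated in this way was not counted. Here strain and set cannot be told apart, since no set but set 1 holds both parents. This contrast also holds ILS replicate 4, low in Gabra6, and ISS replicate 4, high in Alb, and was not repeated without them. The change of ILS minus ISS from set 1 to sets 11 and 15 was 0.49 for Dbp (unadjusted p = 0.000349, adjusted p = 0.45). It was 0.38 for Nr1d1 (adjusted p = 0.631) and 0.30 for Per3 (adjusted p = 0.63). No gene of the table passed that test in limma (0% of genes tested), while 943 had an unadjusted p under 0.05. An F test over ILS, ISS and LXS41 within set 1 called 4 of 10 members, against 6.06% of all genes: Dbp (0.00179), Per1 (0.0144), Tef (0.0206) and Per3 (0.044). In that set the 2 LXS41 profiles were the lowest for Dbp (9.23 and 9.30) and Tef (9.04 and 9.12).

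**Figure D3:**
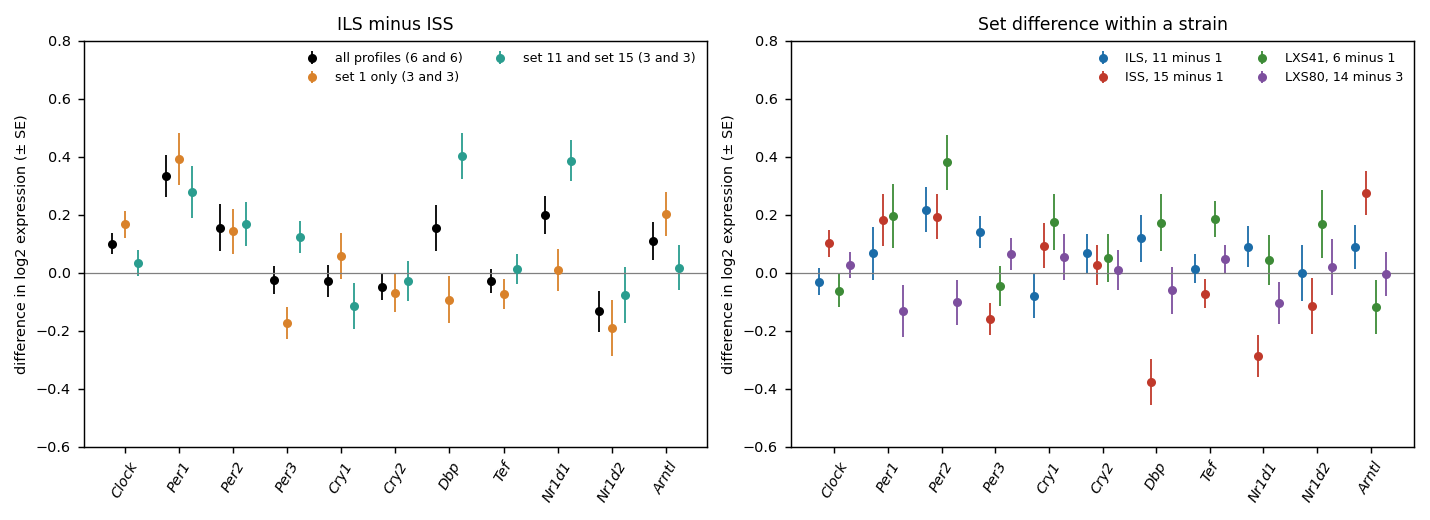
Points are differences in log2 expression from limma with bars of ± 1 SE, for the 10 clock genes and Arntl. On the left is ILS minus ISS over all profiles (black), within set 1 (orange) and between set 11 and set 15 (green). On the right is the higher-numbered set minus the lower-numbered set within each strain. Per1 is above 0 in all 3 contrasts of the parents, Dbp and Nr1d1 move from about 0 in set 1 to 0.40 and 0.39 outside it, and the largest fall is that of Dbp in ISS, -0.38.

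The set shift was then tested within each strain. No member passed in any strain. Calls in the whole table were as rare: 0% of genes within ILS and 0% within LXS80, 0.00485% (1 gene) within ISS and 0.00485% (1 gene) within LXS41. At an unadjusted p under 0.05, limma gave 878, 783, 1447 and 2079 genes. The joint F test over sets within strains called 0.00970% (2 genes) and no member. Its smallest unadjusted p among the members were 0.00118 for Per2, 0.00254 for Dbp and 0.0111 for Nr1d1 (adjusted p = 0.368, 0.477 and 0.588).

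The median absolute difference between sets over the members was 0.171 in LXS41, 0.136 in ISS, 0.0729 in ILS and 0.0576 in LXS80. In ISS, the lowest unadjusted p was that of Dbp. From set 1 to set 15, Dbp went from 9.71, 9.88 and 9.92 to 9.48, 9.55 and 9.36, a difference of -0.38 (SE 0.080, unadjusted p = 0.000166, adjusted p = 0.149). Nr1d1 went from 10.50, 10.64 and 10.61 to 10.37, 10.22 and 10.31 (-0.29, adjusted p = 0.234). Per3 went from 8.66, 8.71 and 8.70 to 8.60, 8.53 and 8.47 (-0.16, adjusted p = 0.537). In each of these genes the sets did not overlap, and how many genes of the whole table did the same was not counted. Arntl and Clock, the activator pair, had values in the other direction. Arntl went from 8.13, 8.11 and 8.18 to 8.56, 8.32 and 8.38 (0.27, adjusted p = 0.319). Clock went from 10.11, 10.24 and 10.24 to 10.30, 10.28 and 10.31 (0.10, adjusted p = 0.694). The difference of Clock was 0.058 without ISS replicate 1, the low profile. Per1 and Per2 also went up, unlike Per3, so the Per genes did not share a direction. Per2 went from 8.40, 8.43 and 8.46 to 8.61, 8.70 and 8.55 (0.19, adjusted p = 0.637), and Per1 by 0.18 (adjusted p = 0.74). Without ISS replicate 4, the profile with high Alb, the difference was -0.38 for Dbp (adjusted p = 0.261) and -0.32 for Nr1d1 (adjusted p = 0.28). After quantile normalization the test within ISS called 26 genes, and Dbp (-0.40, adjusted p = 0.0196) and Nr1d1 (-0.29, adjusted p = 0.0228) were among them.

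In ILS the shift from set 1 to set 11 did not have that shape. Dbp was 0.12 higher, Nr1d1 0.09, Per3 0.14 and Per2 0.22 (adjusted p = 1 for each). The Per2 profiles had 8.47, 8.74 and 8.50 in set 1 and 8.80, 8.70 and 8.87 in set 11, which overlap by 1 profile. In LXS41 Per2 had 8.18 and 8.31 in set 1 and 8.77 and 8.48 in set 6, a difference of 0.38 (adjusted p = 0.344). Tef in LXS41 went from 9.04 and 9.12 to 9.27 and 9.26 (0.19, adjusted p = 0.407), and Per1 from 8.91 and 9.14 to 9.41 and 9.03 (0.20, adjusted p = 0.57). Without LXS41 replicate 3 the difference was 0.0031 for Per1 and 0.24 for Per2, so both rest in part on that profile. Between sets 3 and 14 of LXS80 the members differed by -0.13 (Per1) to 0.063 (Per3), with an adjusted p of 0.999 for each.

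Marker lists moved in part with these sets. Averaged over 8 activity genes (Fos, Fosb, Junb, Arc, Egr1, Nr4a1, Dusp1 and Npas4), the mean log2 level was 8.22 to 8.63 in ISS of set 1 and 8.84 to 8.92 in ISS of set 15. In ILS it was 9.15 to 9.57 in set 1 and 8.93 to 9.37 in set 11. LXS80 had 9.30 to 9.55, and LXS41 had 8.26 to 9.01. The strains with high Per1 were thus those with high activity genes. The part of activity genes in the Per1 difference was not tested. Of the 8, 6 were higher in ILS than in ISS and none was lower (median difference 0.57). Of 8 genes induced by glucocorticoids, 2 were higher and none lower (median 0.068). Of 7 genes that respond to temperature, 1 was higher and 1 lower (median 0.29). This contrast called 7.60% of all genes tested, the share that stands beside each list count in this paragraph. The glucocorticoid list averaged 7.99 to 8.13 in ISS of set 1 and 8.22 to 8.28 in ISS of set 15, so it too separated these sets. So did lists of other tissues. The 2 liver genes averaged 6.72 to 6.85 in ISS of set 1 and 7.06 to 7.63 in set 15. For 2 erythroid genes the ranges were 6.36 to 6.65 (set 1) and 6.83 to 7.27 (set 15), and for 3 pituitary genes 6.57 to 6.73 and 6.85 to 7.41. The temperature list had 7.84 to 8.001 in set 1 and 8.003 to 8.16 in set 15. The ranges of the neuron, astrocyte, oligodendrocyte, microglia, endothelium, choroid plexus, cerebellum, pineal and suprachiasmatic lists overlapped between the ISS sets. The part of these lists in the set shift of Dbp and Nr1d1 was not tested. The 8 genes of the suprachiasmatic nucleus averaged 7.095 to 7.35 over all profiles, close to the median gene, and 1 of them was lower in ILS. Of 4 choroid plexus genes, 3 were lower in ILS, with list means of 9.01 to 9.52 in ILS and 9.58 to 9.73 in ISS, and their part in the clock gene differences was not tested.

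LXS80 was compared with LXS41, strains that share no set, so that strain and set cannot be told apart. Of the members, 3 of 10 were higher in LXS80, against 20.7% of all genes called. Per1 was 0.34 higher (SE 0.075, adjusted p = 0.00413), Cry2 0.15 (SE 0.047, adjusted p = 0.0258) and Clock 0.12 (SE 0.038, adjusted p = 0.0269). Cry1 differed by 0.15 (adjusted p = 0.0717). The median difference of the 10 members was 0.11 and that of all genes 0.063, and 3847 genes were higher against 419 lower. After quantile normalization, which brought that median to 0.0037, the counts were 757 and 460. Per1 remained past the threshold in all 28 alternatives of this contrast. Under quantile normalization Cry2 was 0.034 (adjusted p = 0.532) and Clock -0.0037 (adjusted p = 0.966). Without LXS41 replicate 1, whose values were the lowest of the 23 for Per1, Per2, Cry1, Dbp, Tef and Nr1d2, the whole table had 2057 calls in place of 4266.

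Phase relations were read from correlations over profiles. All 45 pairs of members were compared, and 15 passed a 2-sided permutation test after Benjamini-Hochberg adjustment over the 45. Of the 45 Pearson r, 40 were above 0, with a median of 0.43. Values centred within strain left 10 pairs past the threshold, and values centred within strain and set, over the 22 profiles with a partner in their set, gave 24. In that last form all 45 r were above 0 (median 0.61). The correlation of a member with the median gene of the table was then 0.15 to 0.28, and 12.3% to 33.3% of all genes had an r above 0.5 with a given member, so part of this agreement is shared by much of the table. After quantile normalization that background fell to between -0.019 and 0.026, 7 pairs passed over the 23 profiles, and none passed within strain and set.

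The closest pair was Dbp with Nr1d1, both driven by E-boxes. Their r was 0.886 and rho 0.845 (each with a permutation p of 1e-05, the smallest the resamples can give, and an adjusted p of 0.00045). Without the 2 profiles farthest from the median of Dbp, r was 0.861, and centred within strain it was 0.858 (adjusted p = 0.00225). After quantile normalization it was 0.87. Within strain and set it was 0.739 (adjusted p = 0.028), below several other pairs, among them Dbp with Cry1 (0.809). On quantile-normalized values within strain and set it was 0.536 (adjusted p = 0.254). Dbp went with Per3 as well (r = 0.73, rho = 0.676, adjusted p = 0.00112 and 0.00594). The r was 0.689 without the 2 extreme profiles and 0.633 within strain. In single strains it was 0.865 in ILS, 0.932 in ISS, 0.302 in LXS41 and -0.286 in LXS80. Dbp with its family member Tef had an r of 0.669 and a rho of 0.714 (adjusted p = 0.0018 for both; 0.638 without 2 profiles; 0.599 within strain). Per1 with Per2 formed a second pair, with an r of 0.754 and a rho of 0.746 (adjusted p = 0.00112 and 0.0018; 0.668 without 2 profiles; 0.822 within strain; 0.893 within strain and set).

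Per1 and Dbp, by contrast, had an r of 0.32 (adjusted p = 0.21) and within strain of 0.0883. Within strain and set, Per1 had an r of 0.767 with Per3 (adjusted p = 0.0382) and 0.485 with Dbp (0.0611), and Dbp had 0.512 with Per3 (0.0594) and 0.548 with Tef (0.0611). Differences between correlations were not tested. Tef also went with Nr1d2 (r = 0.70, rho = 0.573, adjusted p = 0.00195 and 0.0296), and the r fell to 0.527 without 2 profiles.

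Against Clock, the Per genes and Dbp took different values. Per1 with Clock had an r of 0.721 and a rho of 0.686 (adjusted p = 0.00112 and 0.0054; 0.715 without 2 profiles). Centred within strain it was 0.476 (adjusted p = 0.144), within strain and set 0.638 (adjusted p = 0.0611) and after quantile normalization 0.399 (adjusted p = 0.225), none of which passed. Per2 with Clock had 0.264 (adjusted p = 0.308). Per3 (-0.021), Dbp (-0.12), Tef (-0.14), Nr1d1 (-0.070) and Nr1d2 (0.0020) had r values close to 0 against Clock, with an adjusted p of 0.617 or more. Dbp with Clock was -0.254 within strain, 0.571 within strain and set (adjusted p = 0.0382) and -0.39 after quantile normalization (adjusted p = 0.225), so its sign depended on the form of the data. After quantile normalization Tef with Clock was -0.604 (adjusted p = 0.0151) and Nr1d2 with Clock -0.547 (adjusted p = 0.0423). On deposited values within strain and set, Nr1d2 with Clock was instead 0.716 (adjusted p = 0.0309) and Tef with Clock 0.401 (0.12). In that form Per3 with Clock was 0.746 (0.0217) and Nr1d1 with Clock 0.656 (0.028). Quantile-normalized values within strain and set gave -0.0326 for Tef (0.94) and 0.189 for Nr1d2 (0.906). The signs of these pairs thus also depended on the form of the data.

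Arntl has the larger message rhythm of the activator pair in most tissues. Its r was below 0 with the output genes Dbp and Tef and with Per3, Nr1d1 and Nr1d2. It was above 0 with Per1, Per2, Cry1, Cry2 and Clock. A further 30 correlations set the 10 members against Arntl, Fos and Fkbp5, of which 3 passed. Clock with Arntl had an r of 0.656 and a rho of 0.645 (adjusted p = 0.0058 and 0.0111; 0.613 without 2 profiles; 0.484 within strain, adjusted p = 0.26). Dbp with Arntl had an r of -0.504 and a rho of -0.49 (adjusted p = 0.0838 and 0.111; -0.457 without 2 profiles; -0.427 within strain, adjusted p = 0.352). Tef with Arntl had an r of -0.344 (adjusted p = 0.243) and within strain -0.162 (adjusted p = 0.663). Per1 with Arntl had an r of 0.47 (adjusted p = 0.104), within strain 0.50 (adjusted p = 0.26) and within strain and set 0.513 (adjusted p = 0.234). Per2 with Arntl had an r of 0.166 (adjusted p = 0.611) and within strain 0.331 (adjusted p = 0.344). After quantile normalization Dbp with Arntl was -0.656 (adjusted p = 0.0065) and Tef with Arntl -0.707 (adjusted p = 0.0012). On deposited values within strain and set both signs turned, to 0.138 (adjusted p = 0.804) and 0.393 (adjusted p = 0.388). Quantile-normalized values within strain and set kept the sign, at -0.421 (adjusted p = 0.975) and -0.221 (adjusted p = 0.98). The 3 ISS profiles of set 1 had the 3 lowest Arntl values of all 23, from 8.11 to 8.18, and Dbp values from 9.71 to 9.92. Fos, the immediate early gene, went with Per1 (r = 0.835, rho = 0.811, adjusted p = 0.0003 for both; 0.791 without 2 profiles) and with Clock (r = 0.796, rho = 0.841, adjusted p = 0.0003 for both; 0.745 without 2 profiles). Within strain these were 0.635 (adjusted p = 0.163) and 0.529 (adjusted p = 0.26), which did not pass. No member passed with Fkbp5, a glucocorticoid-induced gene; the highest was Per2 at 0.492 (adjusted p = 0.0838).

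**Figure D4:**
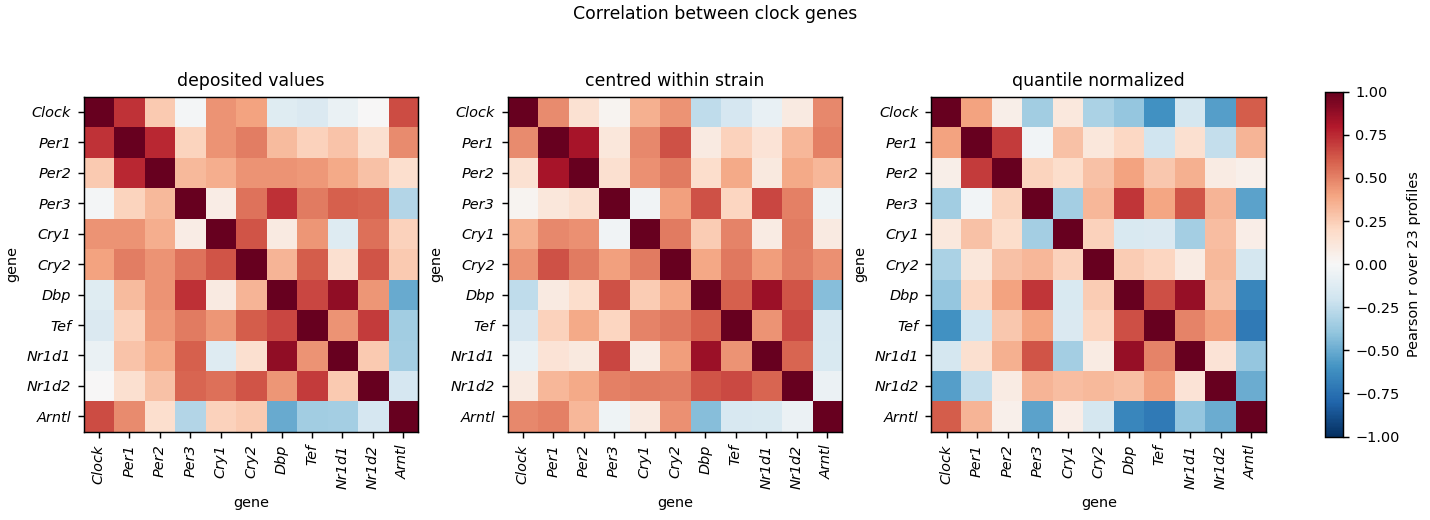
Heat maps of Pearson r over 23 profiles between the 10 clock genes and Arntl (red above 0, blue below 0), for the deposited values, for values centred within strain and after quantile normalization. A red block of Per3, Dbp, Tef and Nr1d1 appears in all 3 maps, though Per3 with Tef is only 0.212 when centred within strain. Per1 with Per2 is red in all 3, and Arntl against Dbp is blue in all 3. Values centred within strain and set are not mapped. In that form Arntl with Dbp was 0.138 on deposited values and -0.421 after quantile normalization.

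**Figure D5:**
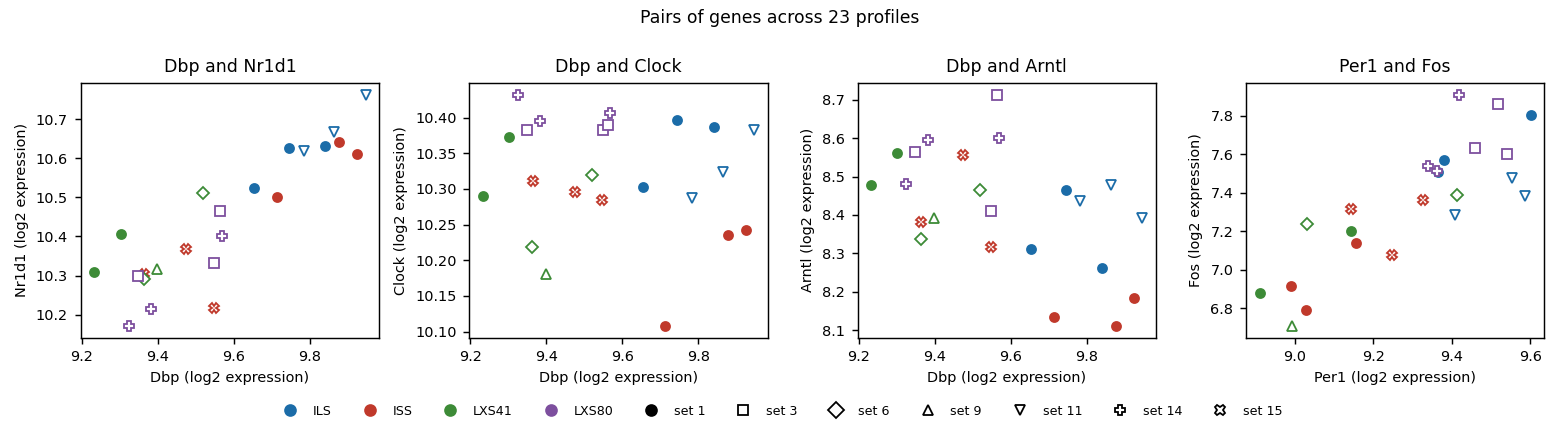
Each point is 1 profile; axes are deposited log2 expression of the named genes, colours give strains and symbols sets (filled circles are set 1). Dbp and Nr1d1 rise together (r = 0.886), Dbp has no slope against Clock (r = -0.119), Arntl falls with Dbp (r = -0.504), and Per1 rises with Fos (r = 0.835).

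Genes most like 3 of the members were listed by r over the 22 profiles, centred within strain and set. Nearest to Per1 were Sik1, a salt-inducible kinase (0.915), Nr4a3 (0.906), Jade2 (0.906), Coro1a (0.902) and Tub (0.898), and Per2 came at rank 6. After quantile normalization the nearest were Nr4a3 (0.892), Arc (0.843), Sik1 (0.836), Per2 (0.833) and Pprc1 (0.828), so Sik1, Nr4a3 and Per2 stayed near Per1 on both scales. Nearest to Dbp were Wrnip1 (0.868), Tinf2 (0.867), Pgm1 (0.859), Ugcg (0.857) and Smarcal1 (0.85), with Cry1 at rank 21. After quantile normalization Ugcg (0.783), Pgm1 (0.773) and Smarcal1 (0.765) were again among the 5. Nearest to Clock were Tpp2 (0.914), Zcrb1 (0.907), Stam (0.892), Ppp4r3a (0.89) and Nup98 (0.889), none of which was among the 5 after quantile normalization. The lowest r were -0.833 for Dbp with Tnfsf13b, -0.903 for Per1 with Gm17112 and -0.876 for Clock with Gm5527. These are descriptions of 22 profiles that share their scaling.

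Other genes of the clock were read from a list of 25. Of these, 8 of 25 passed the strain F test, against 22.6% of all genes. Between the parents 2 of 25 were higher in ILS and none lower, against 7.60% of all genes called, and 6 of 25 were higher and none lower in LXS80 than in LXS41, against 20.7%; both shares are near those of the whole table. Their median difference was -0.011 between the parents and 0.12 between LXS80 and LXS41. Bhlhe40 (DEC1), a repressor at E-boxes, was 0.31 higher in ILS (SE 0.062, adjusted p = 0.00221), from 8.98 to 9.33 in ILS and from 8.64 to 8.93 in ISS, without overlap. Sik1, a kinase that limits the resetting of the clock by light, was 0.40 higher (SE 0.091, adjusted p = 0.00682), from 8.64 to 9.09 against 8.20 to 8.68, and the strains overlapped. Its difference was 0.68 within set 1 (adjusted p = 0.000561) and 0.12 outside it (adjusted p = 0.654). Ciart (CHRONO), a repressor of the activator pair, passed the strain test (adjusted p = 0.00583) and followed Dbp by set: ILS minus ISS was -0.12 in set 1 (adjusted p = 0.674) and 0.37 outside it (adjusted p = 0.0287).

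Arntl passed the strain test as well (adjusted p = 0.0209), from 8.41 to 8.71 in LXS80, 8.34 to 8.56 in LXS41, 8.26 to 8.48 in ILS and 8.11 to 8.56 in ISS, ranges that overlap. Nfil3 (E4BP4), which opposes the PAR bZIP factors at D-boxes, passed too (adjusted p = 0.0218) and was 0.29 higher in LXS80 than in LXS41 (adjusted p = 0.0213). The kinase genes Gsk3b (adjusted p = 0.0351), Prkaa1 (0.0353) and Csnk2a1 (0.0371) passed with strain differences of 0.15, 0.17 and 0.26 between the highest and lowest mean. Npas2, the brain paralog of Clock (0.216), Hlf, the third PAR bZIP factor (0.196), and Bhlhe41 (0.222) did not pass the strain test. No gene of this list passed a set test.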

How the data were processed

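The labels describe small RNA libraries, and the mRNA profiles used here come from a table deposited beside them. Its values are log2 expression per gene that the authors deposited under a header that names probes; their platform, genome build and scaling are unstated in the labels and headers. Columns had nearly equal medians. Columns were kept for strains that have no more columns than labelled libraries (ILS 7 libraries and 6 columns, ISS 8 and 6, LXS41 7 and 5, LXS80 6 and 6), which left out 376 columns; 1 library of uncertain strain was in no group. Replicate numbers only name profiles in column order. An Ensembl identifier gave a symbol to 26820 of the 27123 rows.

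Genes at log2 6 or more in at least 5 profiles were tested by limma (version 3.58.1, R 4.3.3) using a mean-variance trend, robust empirical Bayes and Benjamini-Hochberg adjustment over 20617 genes at 0.05. Strain contrasts and the strain F test used strain means; set contrasts used 1 mean per strain and set. Correlations used 100000 permutations, within strain or within strain and set where values were centred, and 5000 when leaving out a profile. The scripts were checked on simulated data. Alternatives were quantile normalization, median centring, other filters, no trend, set as a term, single sets, and leaving out each profile. Named genes are the 10 members, 7 fixed clock genes (Arntl, Npas2, Nfil3, Hlf, Ciart, Bhlhe40 and Bhlhe41), others of the clock list that passed a test, and the 5 highest and 5 lowest r for Dbp, Per1 and Clock. The members and lists were chosen with earlier results of these data known. No read depth exists for these values, and the number of profiles limits the precision. The miRNA tables were not used here.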

Additional observations from a re-analysis of the deposited data

Results flagged for a closer look

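Among the 40 combinations of a member and a strain, 1 profile stood apart from the others of its strain. Clock was 10.108 in ISS replicate 1, a profile of set 1, where the nearest of the other 5 ISS profiles had 10.236 and the highest 10.311. The set difference of Clock within ISS was 0.102 with this profile and 0.0577 without it. The gap of this profile was 0.631 of the range of the strain, above the critical value of 0.625 for 6 profiles. Chance gives about 1 such profile in 20 groups. No difference between ILS and ISS in the effect of set passed its test for any member.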

How the results depend on the processing

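Per1 in ILS against ISS passed in 31 of 32 alternatives and failed between set 11 of ILS and set 15 of ISS. Of these 32, 23 left out 1 profile each, and set as a term gave the same values as set 1 alone. The ILS against ISS contrast called 496 genes with set as a term or in set 1 alone and 614 outside set 1, where signs turned for Cry1 (0.0573, set 1), Dbp (-0.0926, set 1), Per3 (0.123, outside) and Tef (0.0133, outside). The strain F test called 1250 genes with set as a term, which leaves out LXS80. It called 3103 to 5054 when 1 profile was left out, lowest without LXS41 replicate 1. LXS80 against LXS41 called 1217 after quantile normalization, where Clock was -0.00369, and 2057 to 4653 with 1 profile left out: 2057 without LXS41 replicate 1, 2255 without LXS41 replicate 4 and 2567 without LXS80 replicate 6. Set calls within ISS were 26 (quantile), 8 (median centring) and 5 (filter at 7), and 1 to 9 with 1 profile left out; within LXS41 they were 3 (filter at 7) and 0 to 2, within LXS80 0 to 1, over all strains 1 to 4, and for the change between sets 0 to 1. Member pairs past the threshold were 24 within strain and set, 7 after quantile normalization and 8 (without LXS41 replicate 1) to 18 with 1 profile left out. None of the 30 pairs with Arntl, Fos and Fkbp5 passed within strain (0) or within strain and set (0). On deposited values within strain and set, the sign turned for Clock with Per3 (0.746), Dbp (0.571), Tef (0.401) and Nr1d1 (0.656). In the same form it turned for Arntl with Dbp (0.138), Per3 (0.434), Tef (0.393), Nr1d1 (0.55) and Nr1d2 (0.364). Within strain it turned for Clock with Per3 (0.0307). After quantile normalization over all profiles it turned for Clock with Nr1d2 (-0.547) and Per1 with Per3 (-0.0283). The cause of these changes was not tested. No paired analysis was possible because the animal numbers of the mRNA columns match no replicate in the labels.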
